A study of Mus musculus with 25 samples.

Results

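The troponin genes of striated muscle were examined in mouse soleus, a postural leg muscle that mixes slow and fast fibers. The members were the 8 genes Tnni1, Tnni2 and Tnni3 (troponin I), Tnnt1, Tnnt2 and Tnnt3 (troponin T), and Tnnc1 and Tnnc2 (troponin C), taken from the count table by their symbols. They were 8 of the 52636 genes in the count table, and all 8 passed the filter on low counts among the 16340 genes tested. Total RNA, depleted of ribosomal RNA, had been sequenced from the soleus of 25 C57BL/6 mice aged 12 weeks, 13 males and 12 females, with 1 library per mouse. The wild-type (WT) mice were homozygous for Dnmt3a with loxP sites around exon 19 (Dnmt3a flox/flox), and the muscle knockout (mD3AKO) mice carried the same floxed alleles together with the mCK-Cre transgene. Both genotypes therefore carried floxed alleles. The transgene expresses Cre from the promoter of muscle creatine kinase, late in differentiation, and the whole muscle used for RNA also holds satellite cells and non-muscle cells. Mice either ran on a treadmill for 30 min and were sampled 60 min later (exercised) or spent the same 30 min on a stationary treadmill (rest). The groups were WT at rest (n = 5), mD3AKO at rest (n = 7), exercised WT (n = 7) and exercised mD3AKO (n = 6).

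Troponin is the calcium switch of the thin filament. Troponin C binds the calcium released into the fiber, troponin I holds actin and myosin apart until calcium is bound, and troponin T anchors both subunits to tropomyosin. Each subunit has isoforms typical of slow fibers (Tnni1, Tnnt1, Tnnc1) and of fast fibers (Tnni2, Tnnt3, Tnnc2), whereas Tnni3 and Tnnt2 are the cardiac isoforms. Tnnc1 serves slow fibers and the heart alike, Tnnt2 is also expressed in developing and regenerating skeletal muscle, and the slow to fast proportion of these transcripts is a common readout of fiber type.

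Several of the genes lie next to each other in the mm10 genome. Tnni1 (ENSMUSG00000026418.16, chr1:135779434-135810989, plus strand) stands 25364 bases before Tnnt2 (ENSMUSG00000026414.13, chr1:135836354-135852260, plus strand), with Lad1 between them. Tnnt1 (ENSMUSG00000064179.13, chr7:4504570-4516382, minus strand) is separated by 1922 bases from Tnni3 (ENSMUSG00000035458.15, chr7:4518305-4524229, minus strand). On the same chromosome, Tnni2 (ENSMUSG00000031097.15, chr7:142441808-142444410, plus strand) and Tnnt3 (ENSMUSG00000061723.18, chr7:142498836-142516009, plus strand) are 54425 bases apart, with Lsp1 between them. The troponin C genes lie apart from the other members, Tnnc1 (ENSMUSG00000091898.8) at chr14:31208312-31211729 on the plus strand and Tnnc2 (ENSMUSG00000017300.9) at chr2:164777161-164779967 on the minus strand. Tnnc1 lies inside the span of Nisch, on the minus strand, with 0 shared exon bases, and Tnnc2 overlaps Ube2c, on the plus strand. Each of the neighbouring pairs thus joins a troponin I gene to a troponin T gene, and only the Tnni2 and Tnnt3 pair joins isoforms of the same fiber type.

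Promoter sequence is shown for the slow genes and for the fast troponin C gene, because the slow genes moved together across mice and troponin C offers a slow and a fast gene of 1 subunit. Windows from RefSeq on GRCm38.p6 were matched for 6 of the 8 genes, all but Tnni2 and Tnnt3. Each window is read 5′ to 3′ on the gene's own strand, from 250 to 31 bases before the start of the RefSeq entry, and for Tnni1 the more upstream of its entries was taken. Capitals mark E-boxes (CANNTG, the motif of myogenic bHLH factors) and, in Tnnc1, an MCAT motif (CATTCC, here on the opposite strand), each searched on both strands.
Tnni1 promoter, chr1:135799171-135799390, plus strand: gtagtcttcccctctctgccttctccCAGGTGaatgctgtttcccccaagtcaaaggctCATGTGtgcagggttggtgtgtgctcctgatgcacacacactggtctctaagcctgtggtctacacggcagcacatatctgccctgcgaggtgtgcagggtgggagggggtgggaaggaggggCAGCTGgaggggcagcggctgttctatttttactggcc
Tnnt1 promoter, chr7:4516006-4516225, minus strand: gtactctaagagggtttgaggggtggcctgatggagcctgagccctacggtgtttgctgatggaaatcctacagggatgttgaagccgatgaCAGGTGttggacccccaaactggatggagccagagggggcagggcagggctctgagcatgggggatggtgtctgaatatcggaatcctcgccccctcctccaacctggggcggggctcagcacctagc
Tnnc1 promoter, chr14:31208062-31208281, plus strand: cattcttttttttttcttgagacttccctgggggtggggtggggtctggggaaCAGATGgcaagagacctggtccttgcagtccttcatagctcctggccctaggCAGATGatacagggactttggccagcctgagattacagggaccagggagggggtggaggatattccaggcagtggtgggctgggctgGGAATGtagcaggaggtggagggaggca
Tnnc2 promoter, chr2:164779765-164779984, minus strand: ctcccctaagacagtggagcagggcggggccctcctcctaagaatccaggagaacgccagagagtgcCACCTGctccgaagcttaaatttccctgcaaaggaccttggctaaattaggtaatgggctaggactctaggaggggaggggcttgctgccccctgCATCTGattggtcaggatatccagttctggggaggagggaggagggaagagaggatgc

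The Tnni1 window held 3 E-boxes, that of Tnnt1 held 1, and those of Tnnc1 and Tnnc2 held 2 each. An E-box occurred in 62.2% of all 32524 RefSeq windows of this length, so its presence did not set these genes apart. The MCAT motif of Tnnc1 was found in 11.4% of windows, and the MEF2 consensus, which was in 2.57% of windows, had no match in these 4. A match is a description of the letters, and no factor binding was measured. By GENCODE coordinates the Tnni1 and Tnnt1 windows lie inside their genes, since other transcripts start further upstream. All but the most upstream bases of the Tnnc2 window also lie inside its gene, which reaches to chr2:164779967, and part of that window is covered by a Tnnc2 exon.

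The libraries held 22671457 to 37431801 assigned counts (median 32189360), and the 8 troponin genes together took 1.21 to 2.00% of them. No pair of libraries within a group was a duplicate, the lowest chi-square per degree of freedom over 67 pairs being 13.2. Dnmt3a, the targeted gene, was at 93.3 to 130.4 CPM (counts scaled to a fixed library size, with TMM factors) in WT and at 34.5 to 53.8 CPM in mD3AKO, without overlap. This was 2.86-fold lower in mD3AKO (log2 fold change -1.52 ± 0.07 SE, adjusted p = 1.52e-13), and every library matched its genotype label. Mouse 7, a male mD3AKO at rest, stood apart in genes of immature muscle, and mouse 15, also a male mD3AKO at rest, had the lowest TMM factor (0.631). Males carried the mouse numbers 7 to 19 and females 1 to 6 and 20 to 25, so sex and any effect of the order in which mice were numbered cannot be told apart.

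Levels of different genes were compared per kilobase of exon. The highest mean was that of Tnnt3, fast troponin T, at 4272 ± 684 CPM per kb (SD, n = 25 here and for the levels that follow). Tnni2, fast troponin I, came next at 2371 ± 425, then Tnnc1, slow troponin C, at 1760.0 ± 317 and Tnnt1, slow troponin T, at 1490 ± 262 CPM per kb. These 4 genes were followed by Tnni1, slow troponin I, at 538 ± 96.5 CPM per kb and Tnnc2, fast troponin C, at 457 ± 62.9 CPM per kb. Per exon base, the gap between Tnnc1 and Tnnt1 was smaller than the SD of Tnnc1 and that between Tnni1 and Tnnc2 smaller than the SD of Tnni1, although Tnnc1 was above Tnnt1 in each of the 25 libraries. The cardiac genes were far lower, Tnnt2 at 0.873 ± 0.413 and Tnni3 at 0.169 ± 0.088 CPM per kb. Both slow and fast isoforms of every subunit were therefore abundant, and the cardiac isoforms of troponin T and I were a small part of the troponin RNA.

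The order depended on the length used. Per kilobase of the longest coding transcript, Tnnt1 (3100.1 ± 546 CPM) was above Tnnc1 (2541 ± 458 CPM), and Tnni1 was at 1683 ± 302 CPM, well above Tnnc2 at 522 ± 71.9 CPM. Of its 800 exon bases, 592 (74.0%) are shared with exons of Ube2c on the other strand, which leaves 208 bases of its own. Of 428 genes whose exons are wholly covered by genes of the other strand, 0 reached 250 counts over all libraries (highest 6), whereas 10044 of 41638 genes with no shared exon base (24.1%) did. Reads in exons shared between strands thus appeared to be largely missing from the table, although whether these sets of genes differ in expression was not tested. On its unshared bases the level of Tnnc2 was 1757 ± 242 CPM per kb, about that of Tnnc1. The mean slow to fast ratio of troponin C was 3.83 per exon base and 0.996 per unshared base, so its absolute value is not interpreted here. No other member shared exon bases with a gene of the other strand, and such a constant factor leaves differences between mice as they are.

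The slow isoforms were at similar levels in all groups. Tnni1, which holds the slow thin filament off at rest, was at 2378, 2176, 1453, 1565 and 1716 CPM in the WT mice at rest. Its lowest, median and highest values were 1669, 1889 and 2816 CPM in mD3AKO at rest, 1518, 1809 and 2301 CPM in exercised WT and 1449, 1943 and 2578 CPM in exercised mD3AKO. The first pair of WT values at rest came from females and the other three from males, and all groups overlapped. Tnnt1, the tropomyosin anchor of the slow filament, was at 3990.0, 3724, 2488, 2525 and 2825 CPM in the same WT mice. It ranged from 2915 to 4890.1 CPM in mD3AKO at rest, from 2855 to 4019 CPM in exercised WT and from 2582 to 4249.8 CPM in exercised mD3AKO. The split of the WT mice was the same as for Tnni1. Tnnc1, the slow calcium sensor, was at 2269, 1978, 1282, 1433 and 1662 CPM in WT at rest, with group means of 1725 ± 402, 1896 ± 375, 1824 ± 219.8 and 1857 ± 386 CPM for WT at rest, mD3AKO at rest, exercised WT and exercised mD3AKO.

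The fast isoforms showed the opposite order within the groups. Tnni2 was at 3329, 2856, 3989, 4010.4 and 4576 CPM in the WT mice at rest, in the same order of mice, females first. Its lowest, median and highest values were 2560.1, 3054 and 4268 CPM in mD3AKO at rest, 3182, 3271 and 4347 CPM in exercised WT and 2357, 3708 and 4421 CPM in exercised mD3AKO. The WT females at rest were here below the WT males at rest, and the 4 groups overlapped. Tnnt3 was at 6409.6, 5767, 7605, 7319 and 8397 CPM in WT at rest, and its group means were 7099.5 ± 1029.5, 6433 ± 1193, 6791 ± 922 and 6829.9 ± 1336 CPM in the order given for Tnnc1. Tnnc2, the fast calcium sensor, was at 366, 289, 416, 410.0 and 415 CPM in WT at rest, and its group means were 379 ± 54.6, 345 ± 54.8, 361 ± 43.3 and 383 ± 52.4 CPM. With the groups put in order of their means, no neighbours of any of the 6 slow and fast genes were more than 0.336 SD apart. The first and last groups of such an order lie further apart, for Tnnc2 exercised mD3AKO (383 ± 52.4 CPM) and mD3AKO at rest (345 ± 54.8 CPM). The bulk measurement cannot tell fewer fibers of a type from less RNA per fiber.

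**Figure D1:**
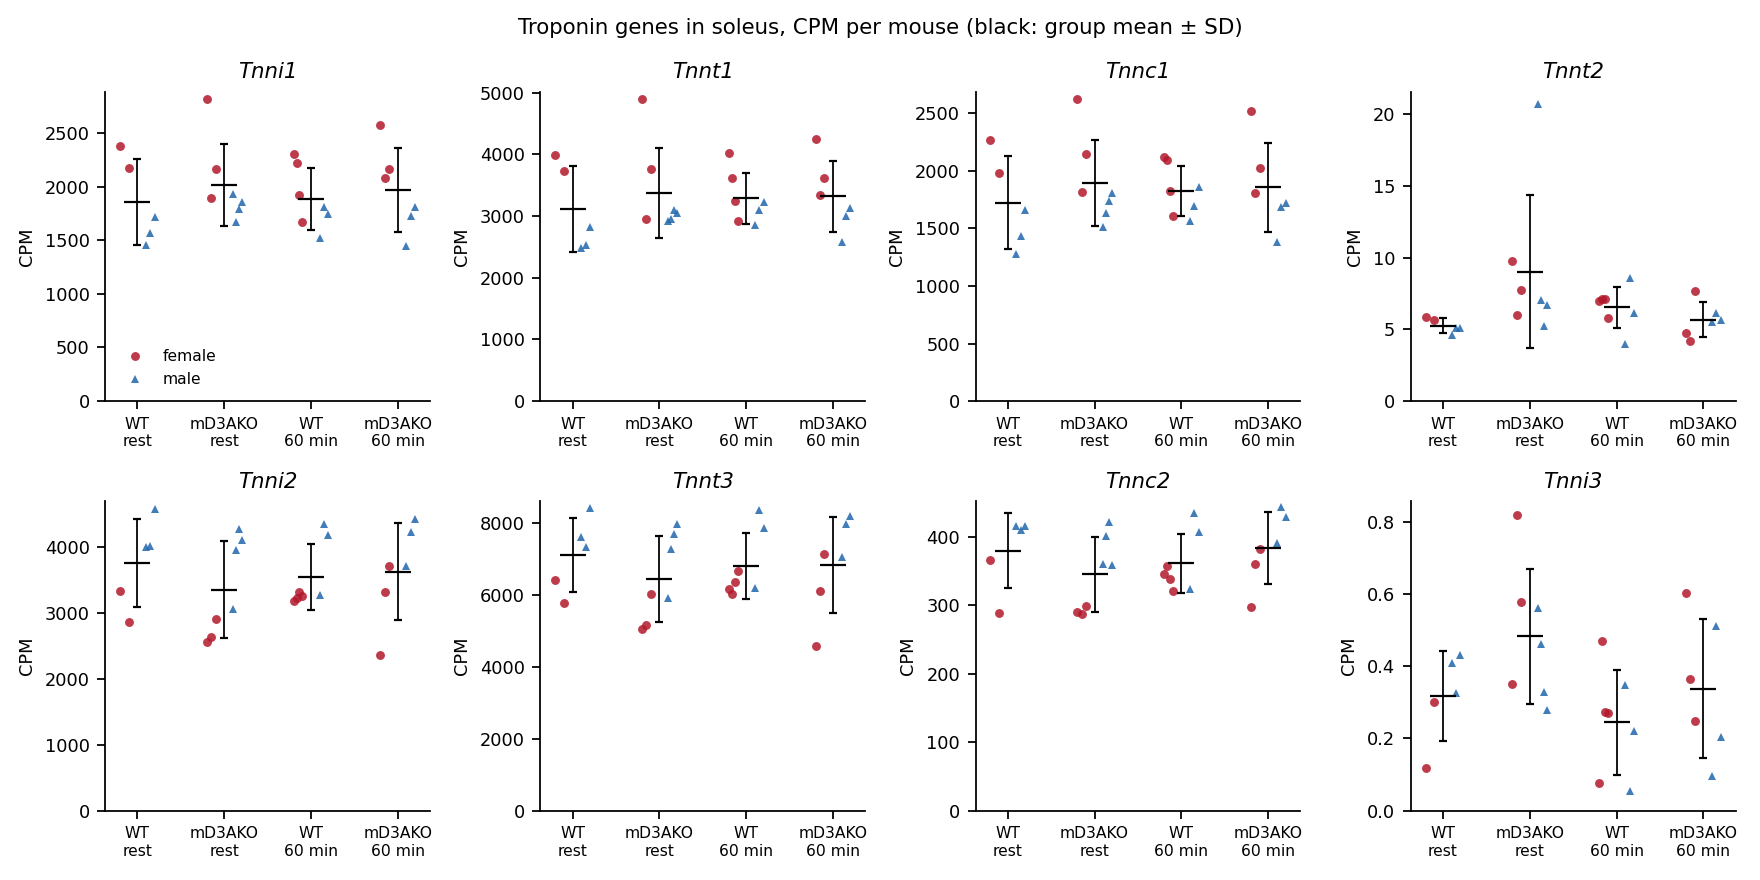
Level of each troponin gene (CPM, TMM-scaled, 1 panel per gene with its own axis) in each mouse, by genotype and exercise group, with females as red circles, males as blue triangles and the group mean ± SD in black. The groups overlap in all 8 panels, females sit mostly above males for Tnni1, Tnnt1 and Tnnc1 and below them for Tnni2, Tnnt3 and Tnnc2, and 1 mouse reaches 20.7 CPM of Tnnt2.

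The response to exercise 60 min after the run was tested as the average over both genotypes. None of the troponin genes was called, 0 of 8 at an adjusted p under 0.05 by edgeR's quasi-likelihood test, against 10.4% of all genes. At an unadjusted p under 0.05 the count was also 0 (21.4% of all genes), as it was by DESeq2 (11.8% of all genes), and the lowest adjusted p was 0.404, that of Tnni3. The log2 fold changes of the 6 slow and fast genes lay between -0.01 and 0.04 with standard errors of 0.08 to 0.11. Tnnt2 was at -0.18 ± 0.17 (-0.0040 without mouse 7) and Tnni3 at -0.45 ± 0.29 (-0.072 in females alone and -0.80 in males alone). Each of the 6 was within 1 SE of no change, and the standard errors of the cardiac genes were larger.

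The effect of Dnmt3a loss, averaged over rest and exercise, called 0 of 8 genes with edgeR, against 0.269% of all genes, 0 at an unadjusted p under 0.05 (6.22% of all genes) and 0 by DESeq2 (0.496%). The slow genes had small positive log2 differences (mD3AKO minus WT), Tnni1 0.09 ± 0.10, Tnnt1 0.07 ± 0.10 and Tnnc1 0.08 ± 0.10. The fast genes had small negative ones, Tnni2 -0.06 ± 0.11, Tnnt3 -0.07 ± 0.10 and Tnnc2 -0.02 ± 0.08, each within 1 SE of no difference. When each mouse was left out in turn, the sign of Tnnc2 turned (0.0081 without mouse 3), and the differences closest to 0 were 0.041 for Tnni1, 0.010 for Tnnt1, 0.028 for Tnnc1, -0.015 for Tnni2 and -0.020 for Tnnt3. For Tnnt2 the difference was 0.29 ± 0.17 and for Tnni3 0.55 ± 0.29, with an adjusted p of 0.912 and 0.843, and without mouse 7 that of Tnnt2 was 0.11. The difference of Tnni3 ran from 0.26 to 0.99 over the alternatives other than leaving out 1 mouse. The genotype by exercise interaction called 0 of 8 genes with edgeR, against 0.0% of all genes, 0 by DESeq2 (0.0%), and 1 at an unadjusted p under 0.05 (2.47%), which was Tnnt2.

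**Figure D2:**
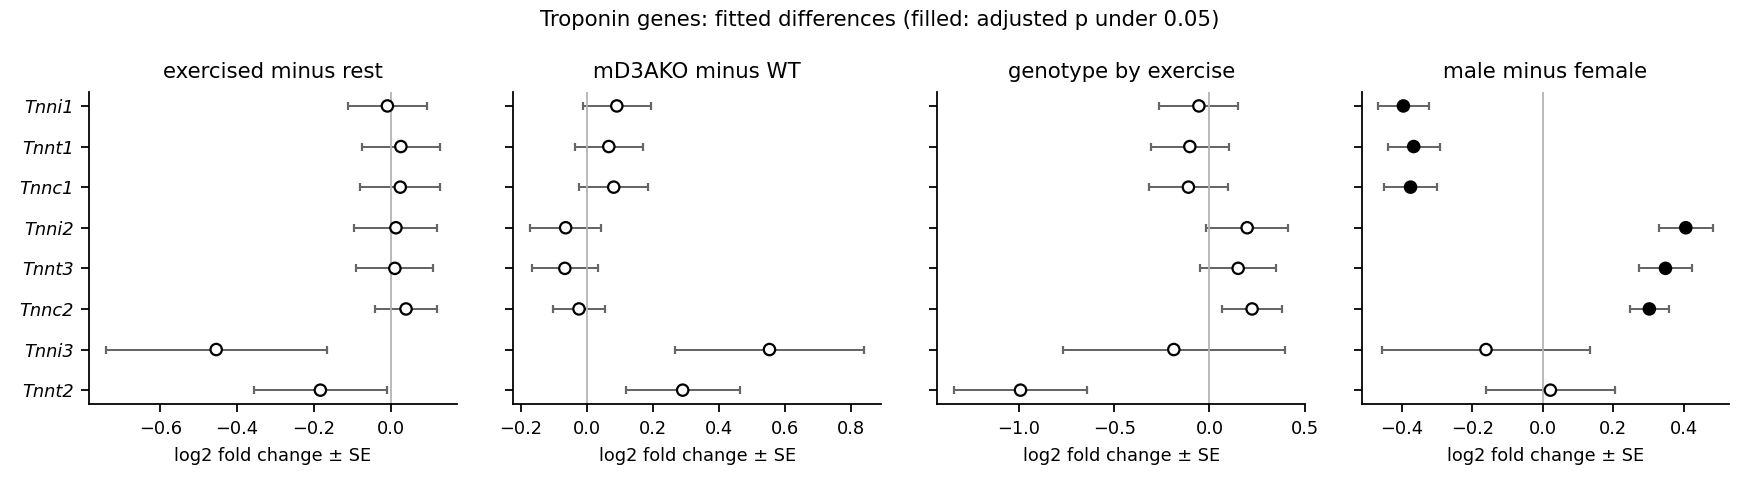
Log2 fold change ± SE of the 8 troponin genes for exercise (exercised minus rest), genotype (mD3AKO minus WT), their interaction and sex (male minus female), with filled symbols at an adjusted p under 0.05 by edgeR. The 6 slow and fast genes sit near 0 for exercise and genotype, and for sex the slow genes lie between -0.40 and -0.37 and the fast genes between 0.30 and 0.41.

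Sex was the factor along which the troponin genes differed. In a model with a mean for each sex, genotype and exercise group, 6 of the 8 genes were called between males and females, the 3 slow genes lower and the 3 fast genes higher in males, by 1.23- to 1.33-fold. The background was 8.64% of all genes called, 5.04% higher and 3.6% lower in males, and DESeq2 also called 6 of the 8 (10.7% of all genes). Dnmt3a itself was at -0.05 ± 0.07 (male minus female, adjusted p = 0.763), so the check of genotype did not move with sex.

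Among the slow genes, Tnni1 was at 1449, 1725 and 1934 CPM (lowest, median, highest) in the 13 males and at 1671, 2170 and 2816 CPM in the 12 females. The fitted difference was -0.40 ± 0.07 on the log2 scale (adjusted p = 0.00133), and the ranges of the sexes overlapped. Tnnt1 was at 2488, 2952 and 3227 CPM in males and at 2920, 3673 and 4890.1 CPM in females, a difference of -0.37 ± 0.07 (adjusted p = 0.00334). Most females were thus above the highest male. Tnnc1 was at 1282, 1662 and 1858 CPM in males and at 1606, 2060.1 and 2621 CPM in females, a difference of -0.38 ± 0.08 (adjusted p = 0.00316).

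The fast genes were shifted the other way by similar amounts. Tnni2 was at 3054, 4103 and 4576 CPM in males and at 2357, 3203 and 3712 CPM in females, a difference of 0.41 ± 0.08 (adjusted p = 0.00174). For Tnnt3 the values were 5907, 7673 and 8397 CPM in males and 4559, 6061 and 7129 CPM in females, with a difference of 0.35 ± 0.08 (adjusted p = 0.00582). Tnnc2 was at 323, 410.0 and 444 CPM in males and at 287, 330 and 382 CPM in females, a difference of 0.30 ± 0.06 (adjusted p = 0.00145). With counts scaled to the library total instead of by TMM, Tnnt3 (0.24, adjusted p = 0.0787) and Tnnc2 (0.20, adjusted p = 0.147) lost the call, and that scaling moved the median of all genes from -0.02 to -0.12. The cardiac genes were not called, with Tnnt2 at 0.02 ± 0.18 and Tnni3 at -0.16 ± 0.30.

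Whether the sex difference varied with exercise or genotype was tested as an interaction. Neither sex by exercise nor sex by genotype was called for any of the 8 genes by edgeR, against 0.0551% and 0.0% of all genes. At an unadjusted p under 0.05 the count was 0 for each, against 3.34% and 1.71% of all genes, and no DESeq2 fit was made. Genes of other cell types that moved with sex were Chrna1, Ncam1 and Myh8, 3 of 7 immature muscle genes, which were lower in males (3.6% of all genes were). The summed level of that list ran from 98.0 to 734 CPM in males (median 150.0, the highest being mouse 7) and from 125 to 444 CPM in females (median 199), and its gene Chrng was at most 0.452 CPM outside mouse 7. By genotype, the medians of this sum were 116 and 132 CPM in WT at rest and exercised. In mD3AKO they were 217 and 239.6 CPM at rest and exercised. Only 1 of the 7 genes, Myh8, was called higher in mD3AKO (0.269% of all genes were called), so a change of the list as a whole was not shown. Pax7, 1 of 4 satellite cell genes, was also lower in males, and of 5 fiber genes common to all types, Mb (myoglobin) and Ckm (muscle creatine kinase) were higher (5.04% of all genes were). By genotype, Pax7 was called higher in mD3AKO. Exercise called 2 of 4 satellite cell genes (Myf5, Pax7) and 2 of 3 endothelial genes (Cdh5, Kdr) lower. It also called 1 of 4 smooth muscle genes (Cnn1) higher, where 10.4% of all genes were called in either direction. Their part in the troponin differences was not tested.

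The slow to fast ratio within a library does not depend on scaling between libraries. It was computed as the log2 ratio of levels per kilobase of exon for each subunit. For troponin I (Tnni1 over Tnni2) the group means were -2.29 ± 0.53 in WT at rest, -1.99 ± 0.52 in mD3AKO at rest, -2.18 ± 0.33 in exercised WT and -2.14 ± 0.57 in exercised mD3AKO. Troponin T (Tnnt1 over Tnnt3) gave -1.68 ± 0.50, -1.41 ± 0.47, -1.52 ± 0.29 and -1.51 ± 0.52 in the same order. For troponin C (Tnnc1 over Tnnc2) the means were 1.79 ± 0.51, 2.07 ± 0.45, 1.96 ± 0.22 and 1.88 ± 0.46. No 2 groups differed by more than the SD of either.

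Neither exercise nor genotype moved a ratio past the test. Exercised minus rest was -0.05 ± 0.19 (SE) for troponin I, 0.01 ± 0.18 for troponin T and -0.03 ± 0.17 for troponin C, with adjusted p of 0.96, 0.968 and 0.96 (2-sided permutation tests, 12 against 13 mice, adjusted over 9 tests). The genotype differences were 0.16 ± 0.19, 0.13 ± 0.17 and 0.10 ± 0.16, with adjusted p of 0.801, 0.801 and 0.825, and without mouse 2 they were 0.086, 0.056 and 0.030. These tests left the difference between the sexes in the spread. With labels permuted within each sex, the adjusted p were 0.923, 0.96 and 0.923 for exercise and 0.338, 0.407 and 0.497 for genotype. Within a sex no exercise or genotype difference passed either, the lowest adjusted p being 0.308 in females and 0.817 in males (exact permutation tests). For troponin I, T and C, exercised minus rest was -0.25, -0.21 and -0.28 in females and -0.043, 0.043 and 0.047 in males. The genotype differences were 0.26, 0.22 and 0.20 in females and 0.13, 0.10 and 0.055 in males.

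Males had lower slow to fast ratios than females for every subunit. The troponin I ratio ran from -2.72 to -1.92 in males (mean -2.50 ± 0.20 SD, n = 13) and from -2.23 to -1.13 in females (mean -1.74 ± 0.33 SD, n = 12). This was a difference of -0.76 ± 0.11 (SE), a 1.70-fold lower ratio in males. Troponin T differed by -0.68 ± 0.11 (1.60-fold), from -1.85 ± 0.17 in males to -1.17 ± 0.33 in females. Troponin C differed by -0.65 ± 0.10 (1.56-fold), from 1.63 ± 0.19 to 2.27 ± 0.28. Each had a permutation p of 1e-05, the smallest that 100000 resamples can give, and an adjusted p of 3e-05.

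The sexes were also apart inside the groups. In WT at rest the troponin I ratios of the 3 males were -2.72 to -2.62 and those of the 2 females -1.75 and -1.66. In mD3AKO at rest the 4 males ran from -2.52 to -1.92 and the 3 females from -1.74 to -1.13. Exercised WT had the smallest gap, from -2.53 to -2.37 in 3 males and from -2.23 to -1.73 in 4 females, and exercised mD3AKO had -2.62 to -2.55 in 3 males and -2.05 to -1.14 in 3 females. The sexes did not overlap in any group for troponin I and troponin C, and for troponin T they overlapped only in exercised WT. The sexes were not tested within single groups.

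The numbering of the mice bears on this comparison. Females numbered 1 to 6 had a mean troponin I ratio of -1.58 ± 0.36, females numbered 20 to 25 one of -1.90 ± 0.24, and the males, numbered 7 to 19, one of -2.50 ± 0.20. For troponin T the values were -0.99 ± 0.35, -1.35 ± 0.21 and -1.85 ± 0.17, and for troponin C 2.35 ± 0.33, 2.19 ± 0.22 and 1.63 ± 0.19. The mean of the males was below that of both runs of females. For troponin I, mouse 7 was the only male above any female. The highest ratios were those of mouse 2 (female, mD3AKO at rest) and mouse 3 (female, exercised mD3AKO), at -1.13 and -1.14 for troponin I.

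**Figure D3:**
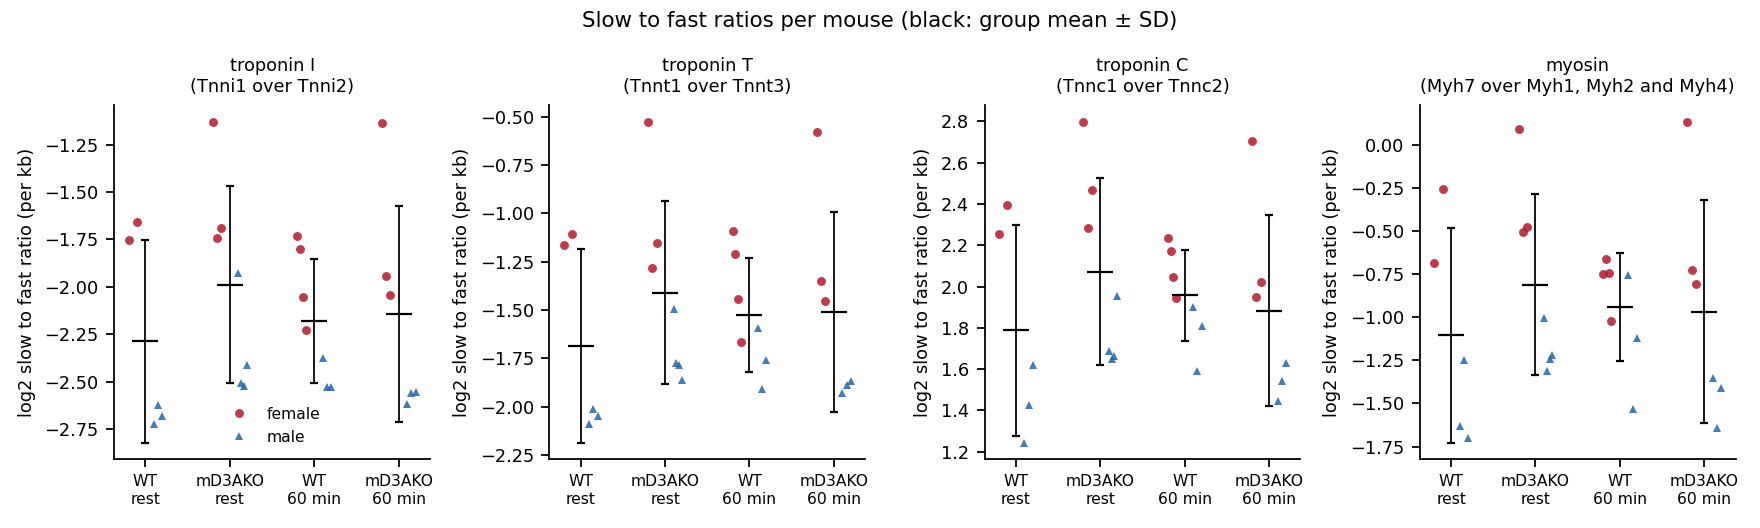
Log2 slow to fast ratio per kilobase of exon in each mouse for troponin I, troponin T, troponin C and, for comparison, myosin heavy chain, by genotype and exercise group, with females as red circles, males as blue triangles and the group mean ± SD in black. Females lie above males in every group for troponin I and troponin C, and the group means are close together.

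The subunit ratios moved together from mouse to mouse. Troponin I and troponin T ratios had Pearson's r = 0.986 and Spearman's rho = 0.98 over the 25 mice, troponin I and troponin C r = 0.940 and rho = 0.952, and troponin T and troponin C r = 0.948 and rho = 0.948. Each permutation p was 1e-05 (adjusted over 6 pairs, 1e-05). The ratios of different subunits use different genes, but in each mouse they come from the same library. Without the 2 mice farthest from the median troponin I or T ratio the r values were 0.977, 0.903 and 0.918.

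The relations were also computed within each sex. In the 12 females r was 0.990 for troponin I and T, 0.961 for I and C and 0.938 for T and C. In the 13 males r was 0.876 for troponin I and T (adjusted p = 6e-05) and 0.645 for T and C (adjusted p = 0.0252). For troponin I and C in males it was 0.50 (adjusted p = 0.092), with rho = 0.863 (adjusted p = 0.00072). The relation of troponin I and C thus passed the test in males by rank only.

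The myosin ratio (Myh7, the slow myosin heavy chain, over the sum of the fast chains Myh1, Myh2 and Myh4) followed the troponin ratios. Its r was 0.946 with troponin I, 0.955 with troponin T and 0.937 with troponin C over 25 mice, and its mean was -1.32 ± 0.27 in males and -0.53 ± 0.36 in females. Within males the r values with the troponin ratios were 0.649, 0.811 and 0.626, and within females 0.953, 0.926 and 0.938, each past the test.

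**Figure D4:**
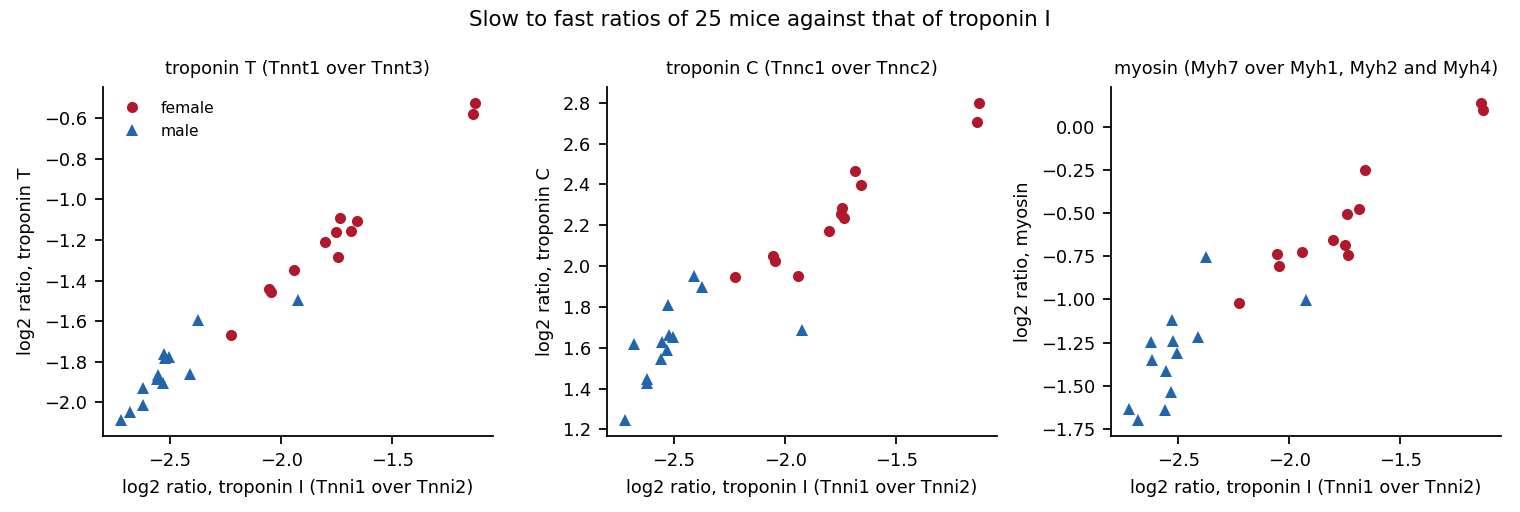
Log2 slow to fast ratios of troponin T, troponin C and myosin heavy chain against that of troponin I, 1 point per mouse, with females as red circles and males as blue triangles. Points lie along a line in each panel (r = 0.986, 0.940 and 0.946, n = 25), with males at the low end.

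Single genes showed the same arrangement. On log2 CPM over the 25 libraries the slow genes had r of 0.943 to 0.969 with each other and the fast genes 0.880 to 0.986, whereas slow against fast pairs had r of -0.651 to -0.548. These values describe libraries that share sex and composition. Of 12679 other genes compared, those most like the mean of the slow troponin genes were Myl2 (slow regulatory myosin light chain, r = 0.886), Gm34302 (0.867), Ctcf (a chromatin insulator factor, 0.849), Myoz2 (a Z-disc protein of slow fibers and heart, 0.847) and Myh7 (0.832). Most like the fast troponin genes were Tpm1 (alpha-tropomyosin, r = 0.954), Myoz1 (the fast-fiber relative of Myoz2, 0.933), Eno3 (muscle enolase, 0.924), 2310065F04Rik (0.923) and Ckm (0.918).

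Other genes of the thin filament and of fiber type were read from gene lists. Of 9 slow fiber genes, 6 were lower and 0 higher in males (median log2 difference -0.29, against -0.02 over all genes, of which 3.6% were lower and 5.04% higher). They included Sln (sarcolipin, the inhibitor of the calcium pump) at -0.82 ± 0.15, Myh7 at -0.51 ± 0.08, Casq2 (calsequestrin of slow fibers and heart) at -0.47 ± 0.07 and Myl2 at -0.36 ± 0.07, with adjusted p of 0.0015, 0.000173, 0.000138 and 0.00158. Of 11 fast fiber genes, 4 were higher and 0 lower in males (median 0.30), against the same 5.04% and 3.6% of all genes. These were Myl1 (fast myosin light chain) at 0.58 ± 0.09, Myh1 (type IIx myosin) at 0.49 ± 0.15, Myoz1 at 0.44 ± 0.10 and Myh2 (type IIa myosin) at 0.30 ± 0.08, with adjusted p of 0.000264, 0.0479, 0.00746 and 0.0247. Myh4 (type IIb myosin) was at 0.83 ± 0.70 and was not called (adjusted p = 0.522), its level running from 18.7 to 5204 CPM among mice. The lists were read in the same libraries as the troponins.

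Of 12 thin filament genes other than the troponins, 2 were higher and 0 lower in males (median 0.09), where 5.04% and 3.6% of all genes were. They were Actc1 (cardiac alpha-actin) at 0.59 ± 0.12 and Tpm1 at 0.46 ± 0.07, with adjusted p of 0.00274 and 0.00026. Exercise called 2 of the 12, where 10.4% of all genes were called. Of these 1 was higher, Lmod2 (leiomodin, which lengthens thin filaments, 0.41 ± 0.11, adjusted p = 0.0169), and 1 was lower, Lmod3 (its skeletal relative, -0.17 ± 0.05, adjusted p = 0.0238). No slow or fast fiber gene was called for exercise, and no gene of the 3 lists was called for genotype or the interaction, where 0.269% and 0.0% of all genes were.

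Tnni3, cardiac troponin I, had 2 to 31 counts per library (median 11), or 0.0549 to 0.818 CPM, which limits the precision of its value in any 1 mouse. Its group means were 0.317 ± 0.124, 0.482 ± 0.187, 0.244 ± 0.146 and 0.338 ± 0.193 CPM for WT at rest, mD3AKO at rest, exercised WT and exercised mD3AKO. Of its exon bases 86 (4.2%) are shared with Dnaaf3 on the same strand. Of the 6 cardiac marker genes, Nppa, Nppb and Myl7 were at most 0.0904, 0.0316 and 0.0312 CPM in any library and Ryr2 at most 1.83 CPM. Myh6 (alpha myosin heavy chain) was at 7.17 to 14.8 CPM and Myl4 at 5.59 to 65.2 CPM. The part of heart muscle genes in the Tnni3 level was not tested.

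Tnnt2, cardiac and immature troponin T, had 96 to 812 counts per library. In WT at rest it was at 5.87, 5.65, 4.59, 5.10 and 5.09 CPM. In mD3AKO at rest its lowest, median and highest values were 5.25, 7.04 and 20.7 CPM, in exercised WT 3.98, 6.96 and 8.61 CPM and in exercised mD3AKO 4.22, 5.60 and 7.69 CPM. The level of 20.7 CPM belonged to mouse 7, and the remaining mice lay between 3.98 and 9.73 CPM. The genotype by exercise interaction was -0.99 ± 0.35 (adjusted p = 1.0, edgeR). Leaving out mouse 7 moved the interaction to -0.64, with an adjusted p of 1.0 as before.

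Mouse 7 was also high in some, though not all, genes of immature muscle. Myh3, the embryonic myosin heavy chain, was at 506 CPM in this mouse and at 20.5 to 72.7 CPM in the remaining mice. Chrng, the fetal subunit of the acetylcholine receptor, was at 1.61 CPM against 0.0273 to 0.452 CPM. Myl4, a light chain of atrial and embryonic muscle that stood in the cardiac list, was at 65.2 CPM against 5.59 to 13.3 CPM. Each was the highest of the 25 libraries, whereas Ncam1 (29.6 CPM), Myog (17.3 CPM) and Myh8 (116 CPM) ranked 2, 4 and 5. Myh8 was higher in every mD3AKO mouse (32.7 to 220.5 CPM) than in any WT mouse (4.08 to 18.0 CPM), so its level in mouse 7 was within the range of its genotype. Myod1 (7.47 CPM) and Chrna1 (56.5 CPM) ranked 11 and 12, near the medians of the remaining mice (6.37 and 56.1 CPM). The same mouse had the highest Ptprc (15.6 CPM), Col1a1 (825 CPM) and Hbb-bs (329 CPM), markers of immune cells, fibroblasts and blood, and the lowest Ryr2 (0.0765 CPM) and Myh6 (7.17 CPM) of the cardiac list. Its summed level of 5 skeletal fiber genes was the lowest of all libraries (76572 CPM), with Ttn (titin) at 33103 CPM against 38778 to 88803 CPM in the remaining mice. Ckm and Acta1 ranked 23 of 25 and Mb 18, whereas Des (desmin, 3462 CPM) ranked 6. The part of these cells and genes in its Tnnt2 level was not tested. Among males, mouse 7 also had the highest troponin I ratio (-1.92).

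**Figure D5:**
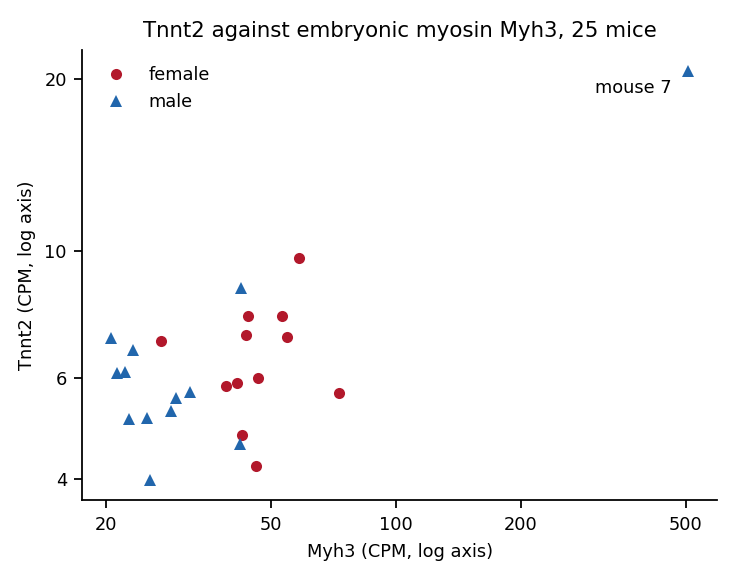
Tnnt2 against Myh3 in each mouse (CPM, both axes logarithmic), with females as red circles and males as blue triangles. Mouse 7 lies alone at 20.7 CPM of Tnnt2 and 506 CPM of Myh3, and the remaining mice reach at most 9.73 CPM of Tnnt2 and 72.7 CPM of Myh3.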

How the data were processed

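RNA of 25 soleus samples had been sequenced as 75-base read pairs (a stranded TruSeq kit, with ribosomal RNA removed by Ribo-Zero Gold). The authors deposited raw counts per gene for all samples in 1 table, and the submitters' processing notes name STAR 2.5.3a, featureCounts 1.5.3, FastQC 0.11.5 and mm10, with GENCODE release 15 given in the study's methods. Whether featureCounts used strand is not given in the sources used here. Positions and exon lengths were those given in the count table. Symbols and transcript sequences came from GENCODE release 21, in which 52403 of 52636 IDs had a symbol.

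Counts were scaled by TMM and filtered with filterByExpr over the 4 groups (minimum count 10, minimum total 15), and edgeR 4.0.16 (R 4.3.3) fitted 1 mean per group by quasi-likelihood. Exercise and genotype were averaged with equal weight, and sex was taken from 8 groups of sex, genotype and exercise. SE was the absolute log2 fold change over the square root of F, and p-values were Benjamini-Hochberg adjusted over 16340 genes, with calls at an adjusted p under 0.05. DESeq2 1.42.0 served as an alternative. Ratios and relations were tested with 100000 permutations of mice (numpy 2.4.6, with scipy 1.17.1 for ranks), each mouse being 1 unit. Ratios within a sex were tested over all possible relabelings. The fitting procedure was tested on simulated data. Libraries held 22671457 to 37431801 counts.

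All 8 members and Dnmt3a were named. From the lists of other genes, those called were named, at most the 4 largest changes per list and comparison, with the 4 myosin heavy chains. For likeness, the 5 genes with the highest r were named. The family and the lists were chosen with earlier results of these data known, and its members were found by symbol. Other scalings, filters, a sex term, blocks of mouse numbers, each sex alone, labels permuted within sex and leaving out each mouse were tried. Splits without mice 7 and 15 or mice 2 and 3, and other gene lengths, were added after seeing the data. Promoter windows came from RefSeq (GRCm38.p6).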

Additional observations from a re-analysis of the deposited data

Results flagged for a closer look

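Of 44 groups of values tested for a sample far from the others, 3 were picked out, where chance picks about 1 in 20. The Tnni1 level of mouse 2, a female mD3AKO at rest, was 2816 CPM, and its Tnnt1 level was 4890.1 CPM, each just past the limit of the test in a group that mixes the sexes. The same mouse had the highest troponin I and troponin T ratios of the series (-1.13 and -0.52). The Tnnt2 level of mouse 7, a male mD3AKO at rest, was 20.7 CPM.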

How the results depend on the processing

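The sex difference of the 3 slow and 3 fast genes had the same direction under every alternative run, and 6 of 8 genes were called in each fit that left out 1 mouse. Over all genes, those fits called from 865 of 16508 (without mouse 20) to 1769 of 16250 (without mouse 7). With total counts in place of TMM, 4 of 8 were called, against 756 of 16340 over all genes. The sex difference of the ratios stayed between -0.81 and -0.71 for troponin I, -0.72 and -0.62 for troponin T and -0.68 and -0.60 for troponin C when each mouse was left out. No troponin gene was called for exercise, genotype or their interaction under any alternative run. Of 295 values each, 42 for exercise, 8 for genotype and 11 for the interaction had the other sign than reported. The cause of each change below was not tested. No paired analysis was possible because each mouse number occurs only once. Depth limited mainly Tnni3, with 2 to 31 counts per library.

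For exercise, Tnni2 turned to -0.0044 in males. Tnnt1 and Tnnc1 turned to -0.0042 and -0.0074 with a sex term, -0.022 and -0.025 with blocks of mouse numbers, -0.11 and -0.11 in females, and -0.0051 and -0.0090 without mice 7 and 15. The troponin T ratio turned to -0.21 in females and -0.024 without mice 7 and 15, and the troponin C ratio to 0.047 in males. For genotype, leaving out mice 2 and 3, both mD3AKO and chosen for their high ratios, which by itself lowers slow and raises fast genes in mD3AKO, gave -0.0054 for Tnni1, 0.012 for Tnni2, -0.032 for Tnnt1, 0.0048 for Tnnt3, -0.020 for Tnnc1 and 0.027 for Tnnc2, and ratios of -0.0047, -0.031 and -0.042 for troponin I, T and C. Tnnc2 was at 0.0047 in males. For the interaction, females alone gave 0.16 for Tnni1, 0.11 for Tnnt1 and 0.11 for Tnnc1, and males alone 0.27 for Tnni3. The sex difference of Tnnt2 turned to -0.064 with total counts and -0.15 without mice 7 and 15.

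Leaving out each mouse in turn, the exercise differences ran from -0.052 to 0.044 (Tnni1), -0.028 to 0.064 (Tnni2), -0.013 to 0.083 (Tnnt1), -0.023 to 0.059 (Tnnt3), -0.026 to 0.085 (Tnnc1) and -0.0010 to 0.074 (Tnnc2). Those of the ratios ran from -0.13 to 0.041 (troponin I), -0.071 to 0.098 (troponin T) and -0.096 to 0.047 (troponin C). The genotype difference of Tnnc2 ran from -0.067 to 0.0081. Interactions ran from -0.16 to 0.043 (Tnni1), -0.44 to 0.040 (Tnni3) and -0.21 to 0.0092 (Tnnt1), and sex differences from -0.37 to 0.041 (Tnni3) and -0.14 to 0.098 (Tnnt2).

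The r of troponin I and C fell to 0.50 in males. Per base of the longest coding transcript the mean log2 ratios were -1.45 (troponin I), -1.02 (troponin T) and 2.27 (troponin C), and per unshared base that of troponin C was -0.01, against -2.14, -1.52 and 1.94 per exon base. Over all genes, total counts gave 927 exercise, 29 genotype and 756 sex calls in place of 1699, 44 and 1412. Genotype calls were 72 with a sex term, 97 with blocks and 81 with DESeq2, and sex calls 865 without mouse 20 (WT at rest). Females alone gave 512 exercise and 6 genotype calls, and males alone 966 and 23.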
